A study of Mus musculus with 8 samples.

Results

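The Ikaros family is a group of 5 mouse genes, Ikzf1 to Ikzf5, and all 5 were found by symbol among the 21524 genes of the deposited table. They were measured in regulatory T cells (Tregs), the CD4 T cells that restrain immune responses under the transcription factor Foxp3, sorted by flow cytometry from mouse spleen. 4 libraries were labelled with the treatment IL-2 (replicates 41 to 44), and they were set against 4 libraries labelled as control (replicates 45 to 48). The labels give the tissue and the treatment of each library and no strain, genotype, age or dose, so it is unknown here whether "IL-2" means the modified IL-2 of the study's title, whether any animal carried a graft, what the controls received and whether each library is a separate animal. The p-values therefore measure the spread between these libraries, which may be technical.

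Ikaros proteins are zinc finger transcription factors of blood cells. Fingers near the start of the protein bind DNA around the letters GGGAA, and a second set at the end lets members pair with each other. Paired proteins bring in corepressors such as the chromatin-remodelling NuRD complex and CtBP, and can also activate genes. Ikzf1 encodes Ikaros, which is needed for lymphocyte development. Ikzf2 encodes Helios and Ikzf4 encodes Eos, which are both known in Tregs, Helios for stability of the Treg state and Eos as a corepressor that works with Foxp3. Ikzf3 encodes Aiolos, best known in B cells and also used by helper T cells. Ikzf5 encodes Pegasus, the most divergent member.

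Promoter sequence from RefSeq (build GRCm38.p6, from 250 bases before to 50 after an annotated start) was at hand for 2 of the 5 genes, as 3 promoters. All promoters at hand are shown, and there was none for Ikzf2, Ikzf3 and Ikzf4. Ikzf1 is one of the members that fell and Ikzf5 is one whose groups overlapped, but they were not chosen as a contrast. Capitals mark the Ikaros core GGGAA or its reverse complement TTCCC, and TTCNNNGAA, the letters bound by STAT factors such as STAT5, which IL-2 activates. Both strands were searched.
Ikzf1, upstream start, chr11:11685675-11685974, plus strand: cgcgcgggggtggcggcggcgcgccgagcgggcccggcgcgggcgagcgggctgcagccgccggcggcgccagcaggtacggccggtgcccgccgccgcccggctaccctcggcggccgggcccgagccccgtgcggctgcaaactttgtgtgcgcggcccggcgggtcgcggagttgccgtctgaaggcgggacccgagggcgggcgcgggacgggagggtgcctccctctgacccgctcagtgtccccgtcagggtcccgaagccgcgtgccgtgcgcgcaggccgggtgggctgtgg
Ikzf1, downstream start, chr11:11689927-11690226, plus strand: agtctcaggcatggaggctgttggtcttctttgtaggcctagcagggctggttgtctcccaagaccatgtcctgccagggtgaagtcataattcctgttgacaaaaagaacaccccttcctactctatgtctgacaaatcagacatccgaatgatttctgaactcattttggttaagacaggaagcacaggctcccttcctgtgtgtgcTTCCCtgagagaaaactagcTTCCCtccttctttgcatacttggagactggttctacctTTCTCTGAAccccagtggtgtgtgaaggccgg
Ikzf5, chr7:131410429-131410728, minus strand: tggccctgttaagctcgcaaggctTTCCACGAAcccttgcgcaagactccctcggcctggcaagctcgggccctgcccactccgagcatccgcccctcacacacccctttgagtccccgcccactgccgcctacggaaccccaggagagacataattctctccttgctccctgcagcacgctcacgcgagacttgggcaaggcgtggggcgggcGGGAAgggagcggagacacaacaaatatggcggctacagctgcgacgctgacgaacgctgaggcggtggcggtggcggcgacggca
The upstream Ikzf1 promoter, with a GC content of 81.3%, held 0 matches to GGGAA and 0 to TTCNNNGAA. The downstream one, at 49.0% GC, held 2 and 1, and the Ikzf5 promoter held 1 and 1. Of 32851 promoters of this length, 62.7% held GGGAA and 8.30% held TTCNNNGAA. None of the 3 held the longer form TGGGAA, which 25.6% of promoters hold. The matches overlapped no other marked match, and they describe the letters only.

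Ikzf3 and Ikzf1 transcripts were lower in the IL-2 libraries than in the controls: with IL-2 the mean of Ikzf3 fell by 40.3% and that of Ikzf1 fell by 22.3%. Ikzf2, Ikzf4 and Ikzf5 did not pass the test. Levels are given as normalised reads, the read counts recovered from the deposited variance-stabilised values and scaled between libraries, and differences are on the deposited log2 scale unless stated. That scale is compressed for genes with few reads. All 5 members passed the filter on low values, which kept 5261 genes. Of those genes, 767 (14.6%) were lower and 883 (16.8%) higher with IL-2 at a limma adjusted p under 0.05, or 31.4% in all. The family had 2 members lower and 0 higher, with a median difference of -0.08 against -0.01 over all tested genes. With 5 members, nothing more is read from that share. Fitted on log2 normalised reads, 19.9% of 10777 genes passed and 9.07% passed as lower with IL-2, and among the members Ikzf1 and Ikzf3 did, both lower.

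**Figure D1:**
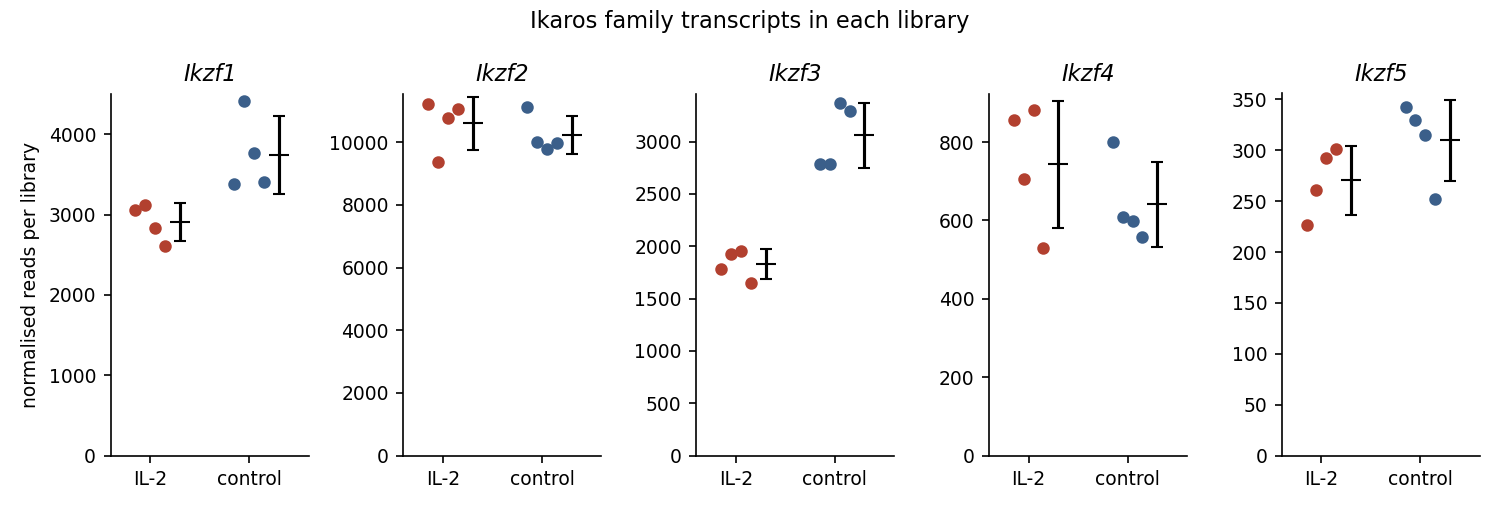
Normalised reads per library (vertical axis, from 0) of each Ikaros family gene in the 4 IL-2 libraries (red, left) and the 4 control libraries (blue, right), with the mean and SD in black. Every IL-2 library lies below every control library for Ikzf1 and Ikzf3, and the groups overlap for Ikzf2, Ikzf4 and Ikzf5.

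Ikzf3 moved most. It had 1781, 1923, 1959 and 1645 normalised reads in IL-2 libraries 41 to 44, against 2787, 2789.5, 3365 and 3294 in control libraries 45 to 48. The highest IL-2 library stood well below the lowest control library, and within the controls libraries 47 and 48 lay above libraries 45 and 46. The means were 1827 ± 143 with IL-2 and 3059 ± 314 in controls (SD, n = 4 each), a fold of 0.597 and a difference of -0.57 ± 0.07 (SE; 95% interval -0.72 to -0.42; limma adjusted p = 6.17e-05). By p-value Ikzf3 was gene 158 of the 5261 tested, and 54 of the 767 genes called lower had a larger fall. On log2 normalised reads the difference was -0.74, with a 95% interval of the fold from 0.525 to 0.684.

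Ikzf1 fell less. Its normalised reads were 3061, 3122, 2836 and 2608 in the IL-2 libraries, against 3381, 4416, 3768 and 3407 in the controls. The groups did not overlap, as was so for 14.7% of tested genes in this direction and 31.5% in either, but IL-2 library 42 and control library 45 were close. Control library 46 stood highest and IL-2 library 44 lowest. The means were 2907 ± 234 with IL-2 and 3743 ± 482 in controls (SD, n = 4 each), a fold of 0.777 and a difference of -0.29 ± 0.08 (SE; 95% interval -0.46 to -0.13; limma adjusted p = 0.0112). Ikzf1 was gene 1037 by p-value, and 298 of the genes called lower had a larger fall. A two-sided exact permutation test over 70 arrangements of the group labels gave p = 0.0286 for both Ikzf1 and Ikzf3, the smallest that 4 against 4 libraries can give.

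Ikzf2, the Helios gene, held the most reads of the family and did not pass. Its normalised reads were 11219, 9362, 10769.9 and 11055 in the IL-2 libraries, against 11124, 10008.5, 9793 and 9969 in the controls. The lowest value of all 8 belonged to an IL-2 library and so did the highest, and control library 45 stood apart from the other 3 controls. The means were 10602 ± 847 with IL-2 and 10224 ± 608 in controls (SD, n = 4 each; limma difference 0.05, 95% interval -0.09 to 0.19, adjusted p = 0.629). On log2 normalised reads the 95% interval of the fold ran from 0.932 to 1.15. The sign of this difference turned under quantile normalization (-0.15, limma adjusted p = 0.123).

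Ikzf4, the Eos gene, varied most within its groups. Its normalised reads were 855, 705, 883 and 531 in the IL-2 libraries, against 801, 609, 597 and 557 in the controls. IL-2 libraries 41 and 43 lay above every control and IL-2 library 44 below every control. The coefficient of variation was 21.8% with IL-2 and 17.0% in controls, where counting error at its mean of 696 reads gives 3.79%. The difference was 0.11 ± 0.09 (SE; 95% interval -0.08 to 0.30; limma adjusted p = 0.374), and the 95% interval of the fold on log2 normalised reads ran from 0.897 to 1.47. Without IL-2 library 44 the difference was 0.19 (limma adjusted p = 0.0752).

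Ikzf5, the Pegasus gene, had the fewest reads. Its normalised reads were 227, 261, 293 and 301 in the IL-2 libraries, against 342, 329.5, 315 and 252 in the controls. Only IL-2 library 41 lay below the lowest control. The means were 270.5 ± 33.9 with IL-2 and 309.6 ± 40.0 in controls (SD, n = 4 each; limma difference -0.08, 95% interval -0.20 to 0.05, adjusted p = 0.363). In RefSeq the gene overlaps Pstk, a kinase gene for selenocysteine transfer RNA, which had 32.8 ± 14.2 and 29.8 ± 27.0 normalised reads. Two-sided exact permutation p-values for Ikzf2, Ikzf4 and Ikzf5 were 0.457, 0.314 and 0.171 over the same 70 arrangements.

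**Figure D2:**
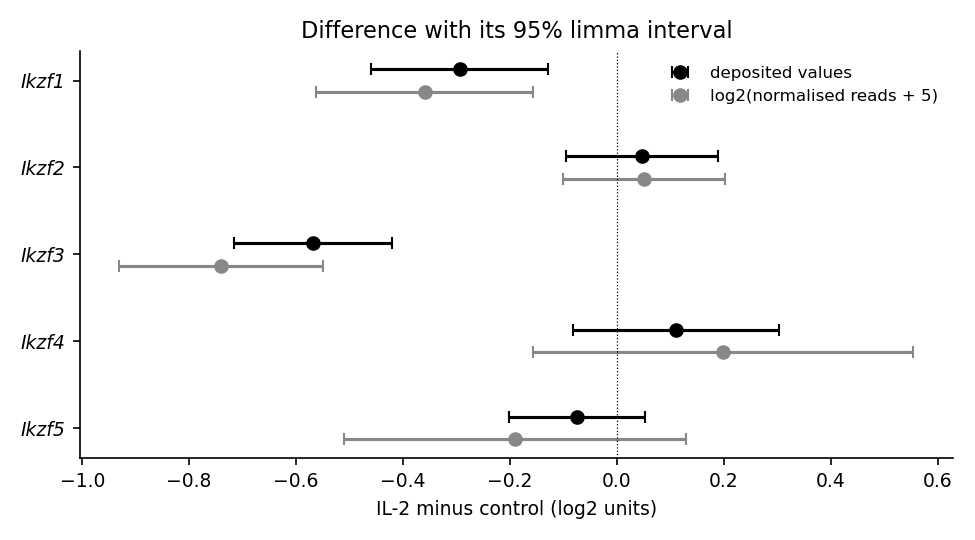
Difference between IL-2 and control libraries for each member in log2 units (horizontal axis), with limma's 95% interval, on the deposited scale (black) and on log2 of normalised reads plus 5 (grey). The intervals of Ikzf1 and Ikzf3 lie below 0 on both scales, and those of Ikzf2, Ikzf4 and Ikzf5 include 0.

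Replicate spread exceeded counting error in every member. Counting error here covers the sampling of reads only. At the fewest reads of each gene in any library, counting error gave a coefficient of variation of 1.06% for Ikzf2, 2.02% for Ikzf1, 2.49% for Ikzf3 and 6.67% for Ikzf5. The observed coefficients in the IL-2 and control groups were 7.99% and 5.94% for Ikzf2, 8.06% and 12.9% for Ikzf1, and 7.85% and 10.3% for Ikzf3. For Ikzf5 they were 12.6% and 12.9%.

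Levels of the members were set in order per kilobase of annotated exon (GENCODE M21, build GRCm38, union of exons), since longer transcripts collect more reads. Statements of most or fewest reads, and ratios of reads between members, are not scaled by length. Per kilobase the order was Ikzf2, Ikzf1, Ikzf3, Ikzf4, Ikzf5 in both groups. Ikzf2 stood at 913 ± 72.9 normalised reads per kilobase with IL-2 and 880.4 ± 52.3 in controls, and Ikzf1 at 503 ± 40.6 and 648 ± 83.5 (SD, n = 4 each). Ikzf3 followed with 209 ± 16.4 and 349 ± 35.9, Ikzf4 with 124 ± 27.0 and 107 ± 18.1, and Ikzf5 with 47.3 ± 5.93 and 54.1 ± 6.99. No library of one member overlapped the next member in this order. With the length of the longest transcript in place of all exons the order was the same, but in controls Ikzf1 (725 ± 93.4) and Ikzf3 (664 ± 68.1) overlapped. Among 5086 tested genes with a length, the control level of Ikzf2 per kilobase of exon ranked 175, that of Ikzf1 259 and that of Ikzf3 582. Ikzf4 ranked 2369 and Ikzf5 3973.

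Ikzf2 made up a larger part of the family's transcripts in the IL-2 libraries. Its own reads did not pass, so the shares and ratios below largely restate the falls of Ikzf3 and Ikzf1. These ratios are within 1 library, so gene length cancels when groups are compared, and they are given as a description without a test. Ikzf2 had 6.30, 4.87, 5.50 and 6.72 reads for each Ikzf3 read in IL-2 libraries 41 to 44, against 3.99, 3.59, 2.91 and 3.03 in the controls, with no overlap. The ratio of Ikzf2 to Ikzf1 averaged 3.68 ± 0.514 with IL-2 and 2.77 ± 0.439 in controls (SD, n = 4 each), and there the groups overlapped because IL-2 library 42 was low. The ratio of Ikzf1 to Ikzf3 averaged 1.59 ± 0.112 with IL-2 and 1.24 ± 0.242 in controls, with overlap at control library 46. As a share of the family's reads per kilobase, Ikzf2 held 50.8% ± 3.42 with IL-2 and 43.2% ± 2.59 in controls, and Ikzf3 held 11.6% ± 0.950 and 17.2% ± 2.16. For Ikzf2 the groups all but touched, with 46.6% both in IL-2 library 42 and in control library 45. The summed reads of the family were 15373 to 17142 with IL-2 and 17478 to 18435 in controls.

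**Figure D3:**
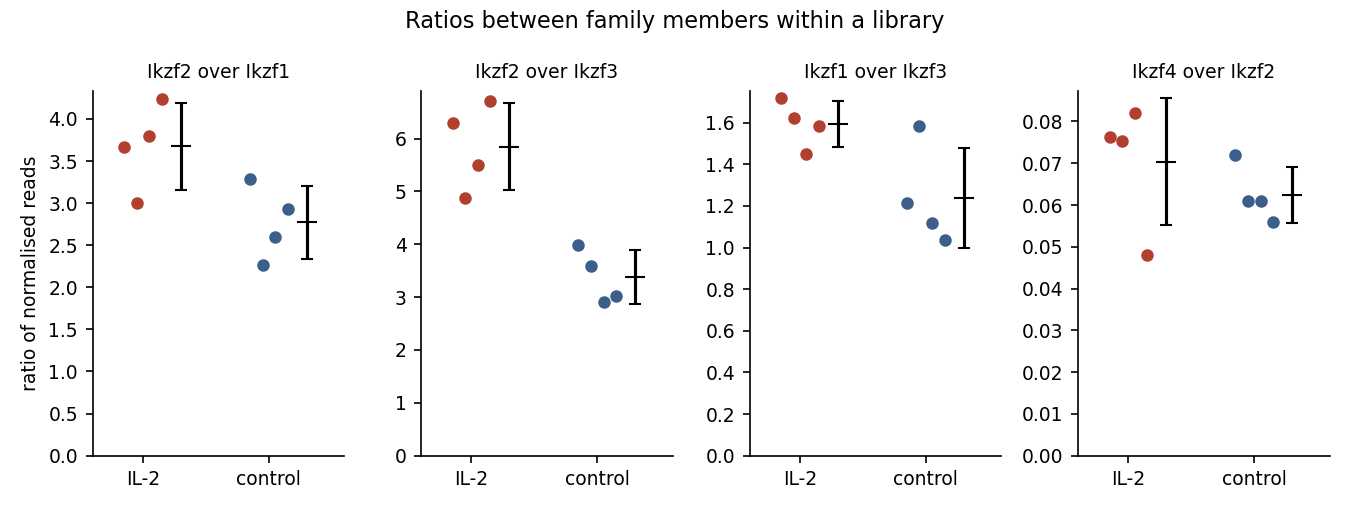
Ratio of normalised reads between pairs of family members in each library (vertical axis, from 0), IL-2 in red on the left and control in blue on the right, with the mean and SD in black. Of these 4 ratios only that of Ikzf2 to Ikzf3 separates the groups without overlap, at 4.87 to 6.72 with IL-2 and 2.91 to 3.99 in controls.

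Foxp3, the partner of Eos, did not pass (limma adjusted p = 0.115). Its reads averaged 1883 ± 262 in the IL-2 group, against 1537 ± 290 for controls. There were 0.978 ± 0.0956 reads of Ikzf3 for each read of Foxp3 with IL-2 and 2.03 ± 0.336 in controls. For Ikzf1 the same ratio was 1.56 ± 0.207 and 2.49 ± 0.442, and neither ratio overlapped between groups. Of tested genes taken singly, 31.5% did not overlap in either direction. Both ratios carry the falls of Ikzf3 and Ikzf1 and the higher Foxp3 mean, and are no separate result. The ratios of Ikzf2 and Ikzf4 to Foxp3 overlapped, at 5.75 ± 1.16 and 6.93 ± 2.01 for Ikzf2 and 0.400 ± 0.106 and 0.442 ± 0.181 for Ikzf4 (SD, n = 4 each).

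Recovered depth was 4953547 to 6399418 reads per library with IL-2 and 4970820.0 to 6147506 in controls. The sort was checked against markers. All 8 Treg markers were in the tested set, with summed reads of 34747 to 41838 with IL-2 and 24484 to 26867 in controls. Most of that gap was Il2ra, the IL-2 receptor alpha chain gene, with 18107 ± 1601 and 6935 ± 781. Of the 8 markers 3 rose (Il2ra, Tnfrsf18 and Lrrc32), Cd4 fell, and Foxp3, Ctla4, Cd3e and Cd3g did not pass. Over all tested genes 16.8% rose and 14.6% fell. B cells also express Ikzf1 and Ikzf3, and of 10 listed B cell markers the 8 in the table summed to 121 to 241 normalised reads with IL-2 and 489 to 606 in controls. Of these, Cd79a, Ms4a1, Pax5 and Ebf1 averaged at most 2.23 reads in either group. The sum lay mainly in 3 genes, Cd74 with 88.5 ± 40.1 and 396 ± 35.4, Cd79b with 60.1 ± 31.1 and 42.0 ± 14.1, and Cd22 with 24.1 ± 5.53 and 114 ± 20.1. The groups overlapped for Cd79b and not for Cd74 and Cd22, of which Cd22 was below the filter of the main fit. Of tested genes, 14.7% lay lower with IL-2 without overlap, and 31.5% did not overlap in either direction.

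Markers of other cell types were summed in the same way. The 10 markers of monocytes, macrophages and dendritic cells summed to 1026 to 1275 reads with IL-2 and 1850.2 to 2079 in controls. Most were reads of Ctss, which had 847 ± 121 and 1663 ± 140.1 and fell (limma adjusted p = 3.34e-05). Cst3 had 200 ± 12.8 and 195 ± 23.0 and did not pass (limma adjusted p = 0.894). Itgam had 63.4 ± 35.9 and 64.4 ± 25.5. Lyz2 averaged 0 and 10.1, and Siglech was at 0 in every library. The groups overlapped for Cst3, Itgam, Fcer1g, Cd68, Csf1r and Itgax, and not for Ctss, Lyz2 and Adgre1. Lyz2 and Adgre1 (0.817 and 4.86 reads) were below the filter of the main fit. Beside these stand the shares of tested genes without overlap, 14.7% with IL-2 below and 31.5% in either direction. Nothing more is read from so few markers. The 5 NK cell markers summed to 0 to 44.3 and 77.6 to 172, the 2 CD8 markers to 56.2 to 90.2 and 53.4 to 103, and the 7 erythroid and platelet markers to 0 to 43.5 and 0.927 to 108. The part of these cells in the falls of Ikzf1 and Ikzf3 was not tested, and in sorted bulk samples fewer cells of a type and less RNA per cell cannot be told apart. IL-2 library 44 stood apart in the proliferation gene Mki67, with 13044 reads against 5332 to 6142 in the other IL-2 libraries and 2810.2 to 4271 in controls. It also had the lowest Ikzf1, Ikzf3 and Ikzf4 of the IL-2 group, but the highest Ikzf5 (301 reads). Its Ikzf2, at 11055 reads, lay within the range of the other IL-2 libraries. Without IL-2 library 44 Ikzf1 still fell by 0.25 (limma adjusted p = 0.0279) and Ikzf3 by 0.53 (adjusted p = 1.58e-04).

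The genes whose profile over the 8 libraries was most like that of each member were found by the root mean square difference between deposited values, each centred on its own mean. The measure spans both groups. The direction of a near gene therefore largely follows from how it was picked and is no separate result. For Ikzf3, whose own root mean square about its mean was 0.30, the nearest were Syt11 (0.06), the coreceptor gene Cd4 (0.06) and Sla (0.07), an adaptor that dampens T cell receptor signalling. Cd4 had 2523 ± 354 reads with IL-2 and 4136 ± 299.6 in controls. The nearest to Ikzf1 were Trim56 (0.05), a ubiquitin ligase gene of antiviral defence, Stat2 (0.06), which transmits interferon signals, and Il27ra (0.07), a receptor chain for IL-27. All 6 of these genes fell, Trim56 with 2020 ± 138 reads with IL-2 and 2730.0 ± 238 in controls. Ikzf2, with a root mean square of 0.09, was nearest to Zkscan1, Cemip2 and Hsd17b4, Ikzf4 to Gpatch4, Sting1 and G3bp1, and Ikzf5 to Tbc1d10a, Pank3 and Srp14. None of these 9 passed the test.

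Genes of the NuRD complex, through which Ikaros proteins remodel chromatin, rose in 3 and fell in 0 of 13 tested, with a median of 0.02. Beside this list and those that follow stand the shares over all 5261 tested genes, 16.8% higher and 14.6% lower with IL-2. Nothing more is read from counts in lists this short. Mbd2, a methyl-DNA reader, had 1860 ± 79.1 reads with IL-2 and 1330.4 ± 98.7 in controls (adjusted p by limma = 4.98e-04). Chd4, the ATPase that binds Ikaros, had 7229 ± 297 and 5746 ± 319 (limma adjusted p = 0.00146), and Rbbp7, a histone-binding subunit, had 1203 ± 63.5 and 975 ± 54.9 (limma adjusted p = 0.0124). Chd3, the gene of a related ATPase, had 8376 ± 644 and 9591 ± 601 (difference -0.18, limma adjusted p = 0.0505). It passed, as a fall, under 7 of 16 alternatives, among them quantile normalization (-0.33, limma adjusted p = 3.13e-04) and leaving out IL-2 library 42 (adjusted p = 0.0290) or control library 45 (adjusted p = 0.0382). Falls of Mta3 without IL-2 library 42 (adjusted p = 0.0230) and of Gatad2b without IL-2 library 43 or control library 45 (adjusted p = 0.0423 and 0.0149) also passed. Mta2 passed as a rise under 3 of 16 alternatives, a stricter filter (at least 2 above the lowest deposited value, adjusted p = 0.0345), quantile normalization (adjusted p = 0.0479) and leaving out control library 47 (adjusted p = 0.0258).

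Among CtBP and Sin3 corepressor genes 1 of 5 tested fell and 0 rose, with a median of 0.00. That was Sin3a, a scaffold of histone deacetylase complexes, with 1329 ± 102 reads with IL-2 and 1701 ± 91.2 in controls (adjusted p by limma = 0.00473). Ctbp1, which works with Eos, had 768 ± 44.0 and 658 ± 92.5 (limma adjusted p = 0.131) and passed as a rise without control library 47 (adjusted p = 0.0400). Ctbp2 averaged 3.52 and 0.458 reads, too few to test.

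Cereblon is the substrate receptor of the ubiquitin ligase through which immunomodulatory drugs degrade Ikaros and Aiolos in human cells. The mouse gene Crbn had 318 ± 59.6 reads with IL-2 and 374 ± 18.2 in controls (adjusted p by limma = 0.222). Of 4 ligase genes tested 2 rose and 0 fell, with a median of 0.07. Ddb1, the adaptor, had 1936 ± 200 and 1524 ± 54.7 (limma adjusted p = 0.00856), and Cul4a, the scaffold, had 355 ± 20.1 and 232 ± 70.5 (limma adjusted p = 0.0267). The rise of Cul4a was lost without IL-2 library 41 (limma adjusted p = 0.0656) and without the filter on low values (adjusted p = 0.0513). The fit of log2 normalised reads gave it an adjusted p of 0.0503, and control library 47 was low for it. Casein kinase 2 and protein phosphatase 1, which add and remove phosphate on Ikaros, gave 1 rise and 0 falls in 6 tested genes, with a median of 0.03. The gene that rose was Ppp1ca, a catalytic subunit of the phosphatase, with 1930.3 ± 146 and 1553 ± 168 (limma adjusted p = 0.0202), which was lost without control library 46 (adjusted p = 0.0606). Another subunit gene, Ppp1cb, passed as a fall without IL-2 library 44 (adjusted p = 0.0399).

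Of 15 genes reported as T cell targets of Ikaros proteins, 6 had enough reads to be tested, of which 3 fell and 1 rose, with a median of -0.23. Bcl6, a repressor that Aiolos is reported to induce in follicular helper cells, had 75.0 ± 11.7 reads with IL-2 and 329.5 ± 54.4 in controls (adjusted p by limma = 1.46e-05). Il7r, the IL-7 receptor chain gene, had 1361 ± 247 and 2036 ± 219 (adjusted p = 0.00283), and Prdm1 fell with them but not without IL-2 library 41 (adjusted p = 0.0502). Bcl2, a survival gene, rose to 4683 ± 717 with IL-2, against 2309.9 ± 279 in controls. Il2, which Ikaros and Aiolos are reported to repress, averaged 0 and 0.229 reads, too few to give a direction, and Ifng averaged 27.9 ± 11.0 and 10.7 ± 9.06. Dtx1, a regulator of Notch signalling, had 1669 ± 421 and 1286 ± 111 (limma adjusted p = 0.124) and passed as a rise without IL-2 library 44 (adjusted p = 0.00125).

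The list of Foxp3 and its DNA-binding partners split, with 3 rising and 4 falling in 11 tested, Foxp3 included, and a median of 0.03. Satb1 (1522 ± 112 with IL-2 and 2859.6 ± 302 in controls) and Irf4 (380.5 ± 55.1 and 554 ± 24.8) were among those that fell, together with Foxo1 and Runx1. Runx3 (782 ± 49.8 and 539 ± 61.9), Nfatc2 and Bach2 rose. The calls of Runx1 and Bach2 each depended on single libraries. Runx1 was lost without IL-2 library 43 or control library 47 (limma adjusted p = 0.0638 and 0.0643), and Bach2 without IL-2 library 43 or control library 45 (adjusted p = 0.0678 and 0.0555).

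Genes linked to Helios-positive Tregs also went both ways, with 6 rising and 3 falling in 10 tested and a median of 0.26. Among all tested genes 16.8% rose and 14.6% fell. A link of these calls to Helios was not tested. Lrrc32, whose product GARP displays latent TGF-beta, had 3998 ± 587 reads with IL-2 and 1501 ± 87.5 in controls, and the ectonucleotidase gene Entpd1 had 649 ± 136 and 330.1 ± 72.2. Capg, Tnfrsf9, Gpr83 and Swap70 rose as well. The rise of Swap70 (1512 ± 309 and 1113 ± 114, limma adjusted p = 0.0358) was lost when any 1 of IL-2 libraries 41, 43 and 44 or control libraries 45, 46 and 47 was left out (adjusted p from 0.0506 to 0.103). The fit of log2 normalised reads gave it an adjusted p of 0.0533, and the limma fit without the filter on low values gave 0.0643. The genes that fell were Itgb8 (215 ± 50.2 and 582 ± 48.4, limma adjusted p = 2.65e-05), an integrin chain that activates TGF-beta, Nrp1 (996 ± 324 and 1599.9 ± 93.2, adjusted p = 0.00493) and Tigit (366 ± 44.9 and 589 ± 175, adjusted p = 0.0185). Nt5e passed as a fall without IL-2 library 42 (adjusted p = 0.00669).

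**Figure D4:**
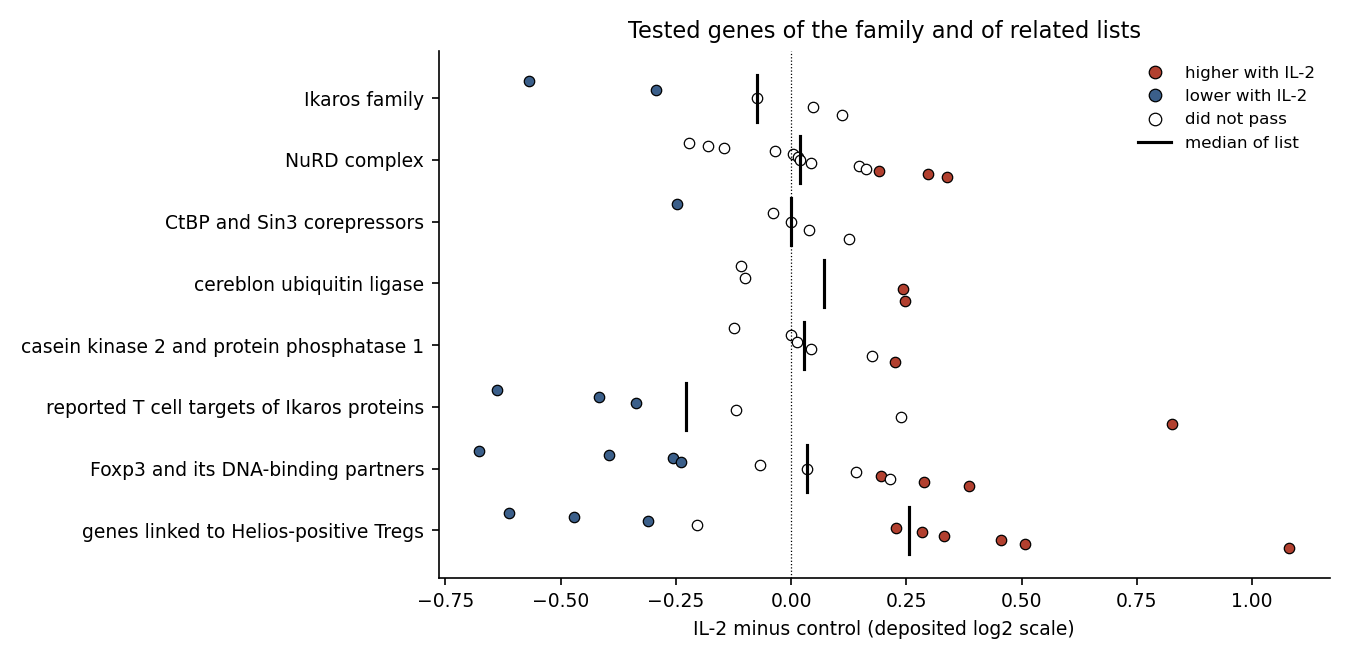
Difference between IL-2 and control on the deposited log2 scale (horizontal axis) for each tested gene of the family and of 7 related lists, red for genes called higher, blue for genes called lower and white for genes that did not pass, with the list median as a bar. Ikzf3 lies furthest left in the family at -0.57, and the Helios-linked and Foxp3 partner lists hold calls on both sides.

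**Figure D5:**
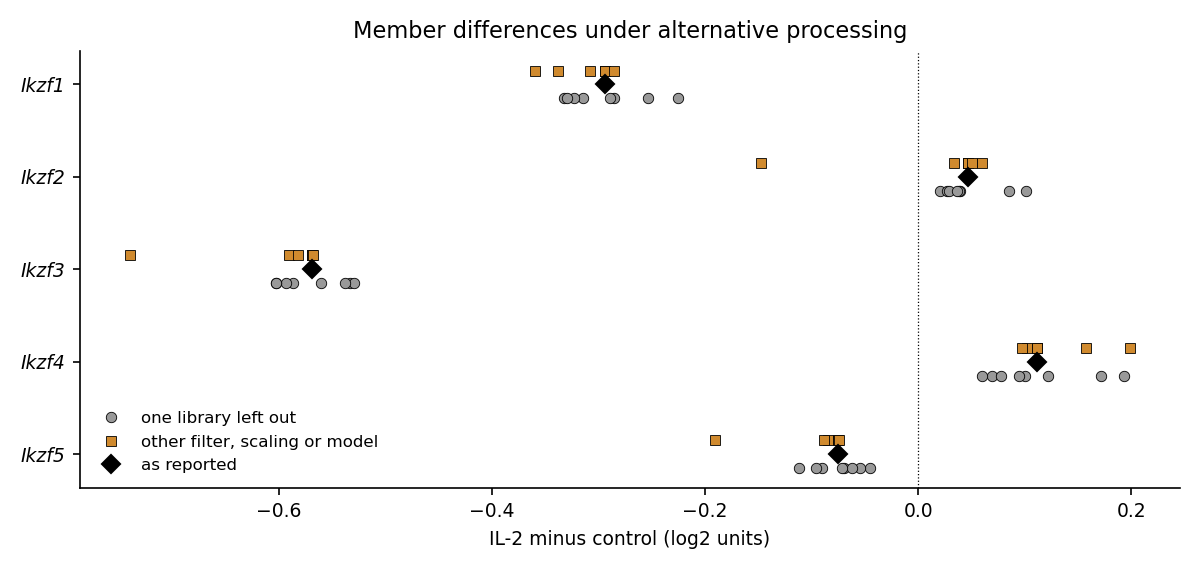
Difference of each member in log2 units (horizontal axis) as reported (black diamond), with 1 library left out (grey circles) and under another filter, scaling or model (orange squares, of which the fit on log2 normalised reads uses a wider scale). Ikzf1 and Ikzf3 stay below 0 under all 16 alternatives, and Ikzf2 crosses 0 under quantile normalization.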

How the data were processed

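Total RNA of flow-sorted spleen Tregs was made into stranded low-input libraries, per the labels' protocols. Per the submitters' processing notes the authors used Salmon, DESeq2 and GRCm39, with no settings listed. Annotation, filters and strand setting: not given in the sources used here. All deposited values are log2-scale variance-stabilised expression made by the authors, with a lowest value of 8.69 that stands for 0 reads. Normalised reads were recovered with the inverse of the authors' variance-stabilising formula in DESeq2. Of the 5 commonest low values in each library, 37 of 40 were whole multiples of 1 read within 0.001. Other values were mostly not whole, so no count test was run. Recovered depth was 4953547 to 6399418 reads per library.

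Genes at least 1 above the lowest value in at least 4 libraries were fitted with limma 3.58.1 (R 4.3.3, eBayes with trend, no covariates) and p-values adjusted over all 5261 by the Benjamini-Hochberg method at 0.05. A second fit took log2(normalised reads + 5) of the 10777 genes that reached 10 such reads in 4 or more libraries. The fit was tested on simulated data. Exact permutation tests were two-sided. Members, gene lists and the naming rule (all members, up to 4 called genes per list and direction with the smallest adjusted p, and the 3 nearest profiles per member) were chosen with earlier results of these data known. Genes whose calls changed in an alternative, Crbn, Ctbp2, Il2, Ifng, Gpr83, Pstk, Mki67 and the individual markers of cell types were named after their values were seen. Tables were handled in Python 3.11.15 with pandas 2.3.3 and numpy 2.4.6, and figures drawn with matplotlib 3.10.9.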

Additional observations from a re-analysis of the deposited data

Results flagged for a closer look

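In 60 genes of the family and its related lists, 120 groups of 4 libraries were searched for a single library far from the other 3. The measure was the gap to its neighbour as a share of the group's range on the deposited scale (Dixon's test at its 95% critical value). The shares below are on that scale, whereas the levels beside them are normalised reads, on which the shares would differ. Chance alone meets this in about 5% of groups, and 4 groups (3.33%) met it. Ikzf2 was high in control library 45 (share 0.830), at 11124 normalised reads against 9793 to 10008.5 in the other controls. Without that library the Ikzf2 difference was 0.09 (limma adjusted p = 0.383). Cul4a was low in control library 47 (share 0.8291), at 129 reads against 253 to 285. Prdm1 was high in IL-2 library 42 (share 0.830), at 389 reads against 304 to 318. Satb1 was high in control library 46 (share 0.856), at 3308 reads against 2652 to 2739.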

How the results depend on the processing

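Ikzf1 and Ikzf3 kept their direction and their call in all 16 alternatives on the deposited scale and all 13 on log2 normalised reads. Adjusted p ran from 0.00408 to 0.0318 for Ikzf1 and from 2.04e-05 to 3.68e-04 for Ikzf3 on the deposited scale (limma). Without 1 library at a time Ikzf1 ranged from -0.33 to -0.23, Ikzf3 from -0.60 to -0.53, Ikzf2 from 0.02 to 0.10, Ikzf4 from 0.06 to 0.19 and Ikzf5 from -0.11 to -0.05. Ikzf2, Ikzf4 and Ikzf5 passed in none of their alternatives. The only turn of direction was Ikzf2 under quantile normalization, -0.15 (limma adjusted p = 0.123), and the cause was not tested. The stricter filter left 1519 genes, without Ikzf4 and Ikzf5, with 380 called higher and 357 lower. Over the 7 related lists it gave 6 falls among 29 tested genes, against 11 among 55, and 1 of the 6, Chd3, was not among the 11. Of 224 recomputed counts of single lists, 19 moved by over 1.5 times or changed to or from 0. No paired analysis was possible because the groups share no replicate numbers. No member fell below the filter, so the fit planned for such members served as a second scale.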

Other observations

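Genes beside the family members in RefSeq's gene order were also read, a choice made after seeing the data. Fignl1, next to Ikzf1 and known for a role in DNA repair, averaged 124 ± 22.2 normalised reads in the IL-2 group, against 52.1 ± 9.22 for controls (SD, n = 4 each). Its groups did not overlap, and its rise passed on log2 normalised reads (limma adjusted p = 0.00382), opposite in direction to Ikzf1. Rps26, the ribosomal protein gene next to Ikzf4, had 3796 ± 287 and 2743 ± 310 (limma adjusted p = 0.00167 on the deposited scale), and such genes have processed copies that can share reads. Suox, on the other side of Ikzf4, had 139.5 ± 31.9 and 167 ± 15.6. The neighbours of Ikzf3, Grb7 and Zpbp2, averaged 7.74 and 20.2 reads for Grb7 and 9.38 and 13.8 for Zpbp2. Of the neighbours of Ikzf2, Erbb4 was at 0 in every library and Spag16 averaged 5.34 and 3.70.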
